A study of Homo sapiens with 6 samples.

Results

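The collagens are the proteins built from COL genes, each of which encodes 1 alpha chain. Genes were taken as members where a probe set of the array carries a single symbol of the form COL, number, A, number, and each gene was read from its brightest probe set by mean over all arrays. By this rule 43 of the 19775 genes on the array were collagen chains, covered by 112 of the 54675 probe sets. The members comprised 11 fibrillar chains, 8 basement membrane chains, 3 transmembrane chains and 21 other chains. Of these, 31 reached the level at which genes were tested (a mean log2 signal of at least 4.73, the 40th percentile of all probe sets) and 12 did not.

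Total RNA of cultured human glioma cells was hybridised to 6 single-colour arrays, 2 per group. U87MGR is the highly invasive derivative, measured as sublines U87MGR2 (replicate 1) and U87MGR3 (replicate 2). U87MGL is the non-invasive derivative, measured as sublines U87MGL2 (replicate 1) and U87MGL3 (replicate 2). U87MG, the established line purchased as the parent of both, was measured as biological replicates 1 and 2. Both derivatives passed through 4 rounds of injection into the striatum of BALB/c nu/nu mice, recovery of the tumour and renewed culture. These athymic hosts lack mature T cells, and the parental cells did not pass through mice, so transplantation separates both derivatives from U87MG. All 3 groups were grown in serum medium. No group carries an engineered allele or was given a drug, per the labels. Since the labels name separate sublines in U87MGR and U87MGL, the spread within those groups includes any difference between sublines, and all p-values measure only the spread between these samples.

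Collagen chains assemble in threes into a triple helix inside the cell, after hydroxylation of prolines and lysines, and are then secreted. Fibrillar collagens form the fibrils of connective tissue, type IV collagens form the sheet-like network of basement membranes, and transmembrane collagens span the plasma membrane and can be shed. In the normal brain collagen lies chiefly around vessels and in the meninges. Cultured glioma cells with mesenchymal features are known to make fibrillar and type VI collagen themselves.

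The arrays had medians of 5.29 to 5.35 on the log2 scale. In 21 probe sets that read RNA spiked in by the laboratory rather than cellular RNA, the arrays fell into sets that cross the groups. U87MGR replicate 1 and both U87MGL arrays were alike, as were U87MGR replicate 2 and U87MG replicate 1, with Euclidean distances over their log2 signals of 0.558 to 1.10 within these sets and 3.74 to 6.09 between arrays of different sets. U87MG replicate 2 stood alone. For this reason the difference between arrays alike in spike-in signal is given beside the pooled value for part of the collagens, where both groups have such an array. For U87MGR against U87MGL it is the value without U87MGR replicate 2. All other differences are pooled over the arrays of a group. U87MGL and U87MG have none, so for them spike-in signal and group can be separated only in fits with the spike-in sets as a block. Such fits rest on both U87MGR arrays, which are different sublines treated there as 1 group. They also leave fewer residual degrees of freedom, so a call lost in them may reflect lower precision, which was not tested. The 3′ minus 5′ log2 difference of the actin control probe sets was 0.25 to 0.39 on the 4 derivative arrays, against -0.01 and 0.22 on the U87MG arrays. The same difference for GAPDH stood at 0.236 on U87MGR replicate 2, the array with the lowest COL1A1 and COL1A2 signals, and 0.03 to 0.07 on the other 5 arrays. The part of either in the differences was not tested. GFAP, the intermediate filament that defines astrocytes, was dim on all 6 arrays (5.21 to 5.45), and S100B was below the tested level (3.18 to 3.51). AQP4 was below that level too (3.24 to 3.83), and ALDH1L1 and SLC1A2 were dim (5.05 to 6.02). GJA1, the astrocytic gap junction protein, was bright (11.73 to 12.91), as was the transporter SLC1A3 (8.69 to 10.35). These astrocyte markers thus ran both ways in level. Signals of different probe sets are not comparable in height, and an astrocytic identity was not tested.

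Few collagens differed between groups past the test, and those that did were higher in the derivatives than in U87MG. COL13A1, a transmembrane chain, rose in U87MGL and in U87MGR against U87MG, and COL4A6, a basement membrane chain, rose in U87MGL against U87MG. No collagen passed between U87MGR and U87MGL. Between those derivatives 0 of the 31 tested collagens were called higher and 0 lower by limma at a Benjamini-Hochberg adjusted p under 0.05, where 0.0413% and 0.117% of all 14513 tested genes were called. At an unadjusted limma p under 0.05 the counts were 2 higher and 5 lower, beside 3.91% and 4.94% of all genes. In U87MGR against U87MG 1 collagen was called higher and 0 lower, beside 1.86% and 1.44% of all genes, and 3 higher and 4 lower passed unadjusted, beside 11% and 9.78%. In U87MGL against U87MG 2 were called higher and 0 lower, beside 3.02% and 1.8% of all genes, and 4 higher and 3 lower passed unadjusted, beside 13.2% and 10.1%. As shares of the 31 tested collagens these calls were 3.23% in U87MGR and 6.45% in U87MGL, on counts too small to set them apart from the background.

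Counts of collagens whose arrays did not overlap between groups were close to the background in 5 of 6 cases and lower in 1, the collagens higher in U87MGL than in U87MG. In U87MGR against U87MGL 7 lay higher and 8 lower (22.6% and 25.8% of the collagens), beside 23.3% of all genes in each direction. Against U87MG, 6 collagens lay higher and 7 lower in U87MGR (19.4% and 22.6%), beside 24.2% in each direction. In U87MGL against U87MG 4 lay higher and 8 lower (12.9% and 25.8%), beside 28.1% and 28.3%. Differences of at least 1 on the log2 scale made up a larger share of the collagens than of all genes in each direction, on counts of 1 to 3 collagens. In U87MGR against U87MGL 1 collagen was higher by that much and 3 lower, beside 0.661% and 1.36% of all genes. Against U87MG, U87MGR had 2 higher and 3 lower, beside 2.58% and 2.17%. In U87MGL against U87MG 2 were higher and 1 lower, beside 3.38% and 2.04%. Replicates also differed more in collagens than in other genes. The SD of the replicate difference over collagens was 0.64 in U87MGR, 0.47 in U87MGL and 0.69 in U87MG, while over all tested genes it was 0.34, 0.28 and 0.45 in the same order.

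**Figure D1:**
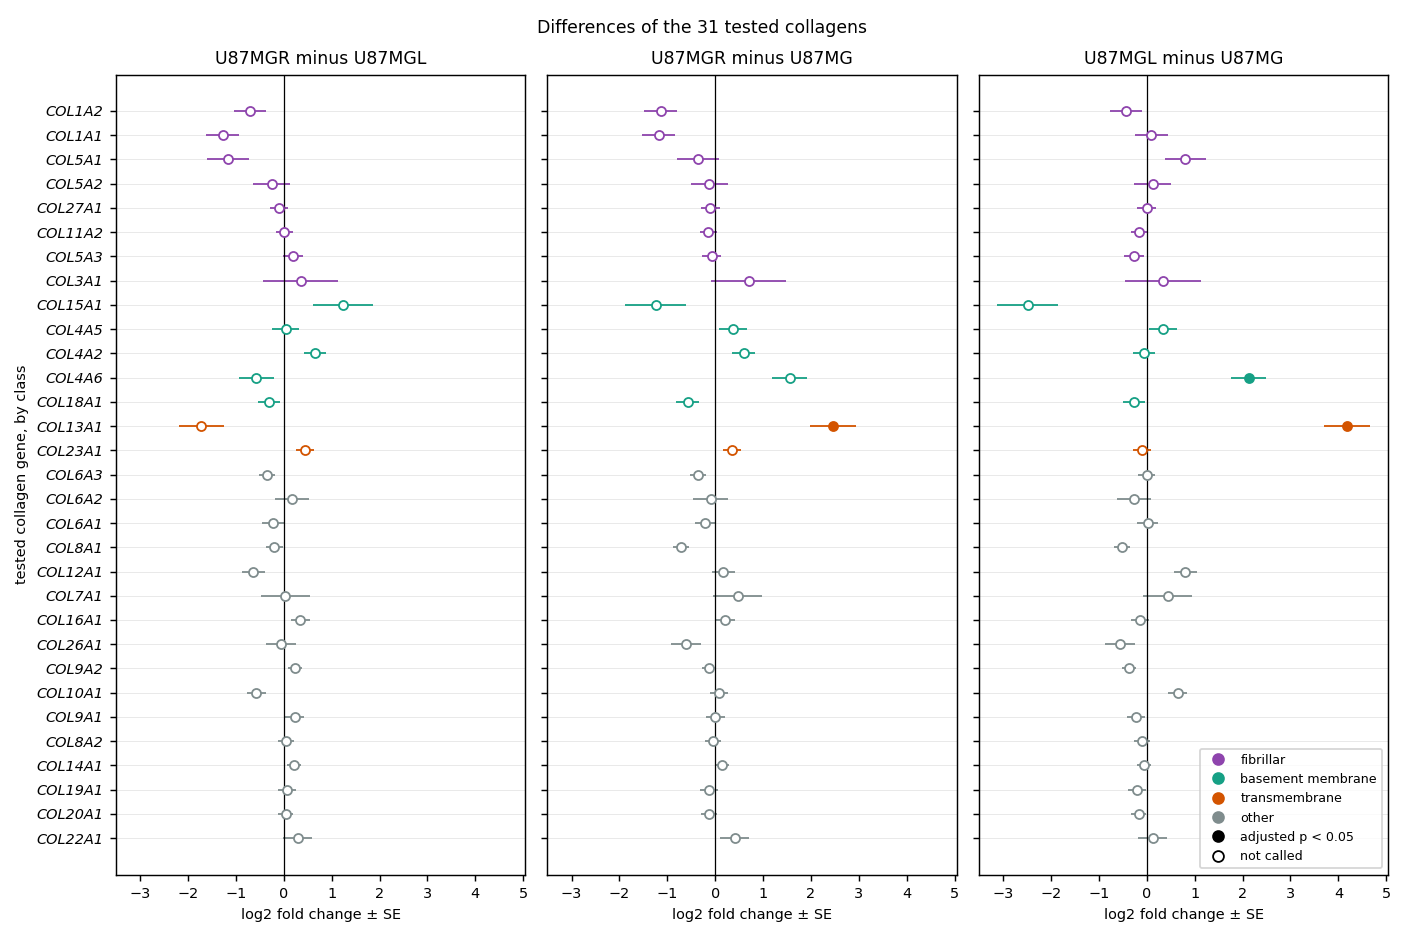
Log2 fold change of each of the 31 tested collagens (points, with bars for the standard error from the limma fit) for U87MGR minus U87MGL, U87MGR minus U87MG and U87MGL minus U87MG, coloured by class and ordered by mean signal within a class. Filled points mark an adjusted p under 0.05: COL13A1 at 2.46 and 4.18 in the comparisons with U87MG and COL4A6 at 2.13 in U87MGL minus U87MG.

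Within a class, members differed in direction in most comparisons. The median log2 difference over the 31 tested collagens was 0.03 between U87MGR and U87MGL, -0.10 between U87MGR and U87MG and -0.07 between U87MGL and U87MG, against 0.00, -0.01 and -0.02 over all tested genes. Of the 8 fibrillar chains tested, 7 had a value below 0 in U87MGR against U87MG, with a median of -0.14. In U87MGR against U87MGL 5 fibrillar chains were below 0, with a median of -0.18, and in U87MGL against U87MG 4 were above and 4 below 0, with a median of 0.05. The 5 basement membrane chains ran in both directions in every comparison, with medians of 0.04 between U87MGR and U87MGL, 0.37 between U87MGR and U87MG and -0.06 between U87MGL and U87MG. Both transmembrane chains tested, COL13A1 and COL23A1, were above 0 in U87MGR against U87MG, with a median of 1.41, and ran in opposite directions in the other comparisons. The 16 other chains had medians of 0.05, -0.07 and -0.12 in the same order of comparisons.

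COL13A1 encodes the single chain of type XIII collagen, a transmembrane protein of cell adhesion sites that also takes part in forming neuromuscular junctions. Its log2 signal was 8.82 and 9.75 on the U87MGR arrays, 10.94 and 11.06 on the U87MGL arrays and 7.53 and 6.11 on the U87MG arrays. No pair of groups overlapped: both U87MGL arrays were the highest, the U87MGR arrays lay between, and both U87MG arrays were the lowest. Group means were 9.28 ± 0.66 in U87MGR, 11.00 ± 0.08 in U87MGL and 6.82 ± 1.01 in U87MG (SD, n = 2 each). In the bulk RNA of a culture, more cells with the transcript and more RNA per cell cannot be told apart.

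The largest of the 3 differences of COL13A1 was that of U87MGL against U87MG, a log2 fold change of 4.18 (SE 0.48), or 18.1-fold, with a limma adjusted p of 0.0109. Leaving out 1 array at a time, it ranged from 3.47 to 4.89, and the call was lost without U87MGL replicate 2, at a limma adjusted p of 0.0744. With 2 or 3 spike-in sets as a block the values were 5.11 and 4.40 and the call was lost, with limma adjusted p of 0.252 and 0.0936. In U87MGR against U87MG the log2 fold change was 2.46 (SE 0.48), with a limma adjusted p of 0.0444, and it was 2.22 between the arrays alike in spike-in signal. This call is fragile: of 6 fits that each left out 1 array, only the fit without U87MG replicate 1 kept it, at 3.17 and an adjusted limma p of 0.0211. Without U87MG replicate 2 the value was 1.75, the lowest of the range. U87MGR differed from U87MGL by -1.72 on the log2 scale (SE 0.48), or 3.29-fold lower, and did not pass with a limma adjusted p of 0.338. Between arrays alike in spike-in signal that difference was -2.18. The comparisons with U87MG share the U87MG arrays, so their values are not independent of each other.

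The sequence just before the annotated start of COL13A1 is shown because this gene had the largest difference of the family. It is the 250 bases upstream of the start in RefSeq on GRCh38.p14, chr10:69801656-69801905, plus strand. Capitals mark matches, on either strand, to any of 4 motifs: the CCAAT box, spelled CCAAT, the TATA box as TATAAA, the GC box as GGGCGG and the AP-1 site as TGACTCA. The 1 match was a TATAAA, near the upstream end of the window, and 10.7% of all 35116 promoter windows of this length hold that motif.
COL13A1: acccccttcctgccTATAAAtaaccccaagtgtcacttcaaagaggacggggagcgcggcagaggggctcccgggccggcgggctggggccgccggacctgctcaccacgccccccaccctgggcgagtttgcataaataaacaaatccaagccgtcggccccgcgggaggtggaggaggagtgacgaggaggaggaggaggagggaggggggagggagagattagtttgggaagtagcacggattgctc

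The other transmembrane chains were dim. COL23A1, a chain of the same subfamily that is shed by furin-type proteases, had log2 signals of 5.40 and 5.49 in U87MGR, 4.95 and 5.04 in U87MGL and 4.87 and 5.31 in U87MG. The U87MGR arrays were the highest and did not overlap with either other group, while U87MGL and U87MG overlapped. Its log2 difference of 0.45 between U87MGR and U87MGL did not pass, with a limma adjusted p of 0.558. COL25A1, found in amyloid plaques as a shed fragment, had 4.94 and 4.29 in U87MGR, 4.55 and 4.37 in U87MGL and 4.68 and 5.05 in U87MG, and its mean lay below the tested level. Both U87MGL arrays lay below both U87MG arrays, and those of U87MGR spread over both.

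**Figure D2:**
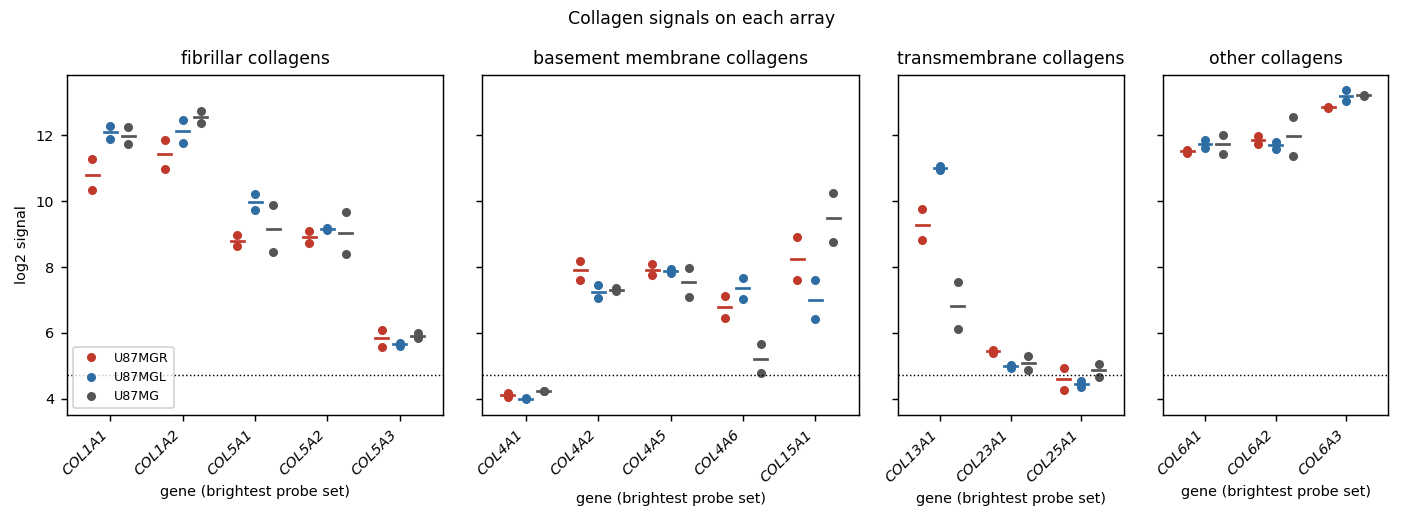
Log2 signal (vertical axis) of 16 collagens by class: those called, the 3 brightest of each class, those apart by at least 1 and trimer partners. Points are single arrays, short lines are group means, with U87MGR, U87MGL and U87MG from left to right, and the dotted line is the tested level of 4.73. Signals of different genes come from different probe sets and are not comparable in height: COL13A1 and COL4A6 show both U87MG arrays below all derivative arrays, and COL4A1 lies under the line on all 6.

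Type IV collagen chains lie in the genome as head-to-head pairs, COL4A1 with COL4A2, COL4A3 with COL4A4 and COL4A5 with COL4A6. Each pair is read outward from a shared stretch between the starts, of 126 bases for COL4A1 and COL4A2, 135 bases for COL4A4 and COL4A3 and 379 bases for COL4A6 and COL4A5. The protein chains of COL4A5 and COL4A6 join in 1 trimer of smooth muscle and epithelial basement membranes, and COL4A1 with COL4A2 form the trimer found in nearly all basement membranes. The log2 signal of COL4A6 was 6.46 and 7.11 on the U87MGR arrays, 7.04 and 7.66 on the U87MGL arrays and 5.67 and 4.78 on the U87MG arrays. All 4 derivative arrays were above both U87MG arrays, and the derivatives overlapped with each other. Means were 6.78 ± 0.46 in U87MGR, 7.35 ± 0.44 in U87MGL and 5.22 ± 0.63 in U87MG (SD, n = 2 each).

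COL4A6 rose in U87MGL against U87MG by a log2 fold change of 2.13 (SE 0.37), or 4.37-fold, with a limma adjusted p of 0.0282. Of the 6 fits without 1 array, only that without U87MG replicate 1 kept the call, at 2.57 and a limma adjusted p of 0.0175, and the lowest value of the range was 1.68, without U87MG replicate 2. In U87MGR against U87MG the log2 fold change was 1.56 (SE 0.37), which did not pass with a limma adjusted p of 0.0703, and it was 1.44 between arrays alike in spike-in signal. Without U87MG replicate 1 this difference was 2.00 and passed, with a limma adjusted p of 0.0381. With 2 or 3 spike-in sets as a block the difference between U87MGL and U87MG was 2.78 and 2.33 and was not called, with limma adjusted p of 0.364 and 0.160. The derivatives differed by -0.57 (U87MGR minus U87MGL), with a limma adjusted p of 0.701.

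COL4A5, the partner of COL4A6 in the trimer and its neighbour on chromosome X, had log2 signals of 7.76 and 8.08 in U87MGR, 7.83 and 7.93 in U87MGL and 7.98 and 7.10 in U87MG. U87MG replicate 1 lay within the range of the derivatives and replicate 2 below it, so no pair of groups was separated. Its log2 differences were 0.04 between U87MGR and U87MGL, 0.37 between U87MGR and U87MG and 0.34 between U87MGL and U87MG, and none passed. The difference between the responses of both neighbours was not tested.

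The stretches before the starts of COL4A6 and COL4A5 are shown since these neighbours are trimer partners and 1 of them, COL4A6, was called. They are 250 bases each from RefSeq on GRCh38.p14, chrX:108439459-108439708 on the minus strand for the outer start of COL4A6 and chrX:108439588-108439837 on the plus strand for COL4A5, and they share 121 bases. RefSeq also lists a start of COL4A6 that lies 1036 bases further into the gene, and the probe sets do not tell which start was used. The same motifs are in capitals as for COL13A1. CCAAT or its reverse complement ATTGG occurs 3 times before COL4A6 and 2 times before COL4A5, and 32.0% of all windows of this length hold it. The 2 before COL4A5 lie in the shared bases and are the same sites as 2 of those before COL4A6. The 250 bases before the inner start of COL4A6, not shown, hold 0 CCAAT and 1 GGGCGG, a motif present in 42.6% of such windows.
COL4A6: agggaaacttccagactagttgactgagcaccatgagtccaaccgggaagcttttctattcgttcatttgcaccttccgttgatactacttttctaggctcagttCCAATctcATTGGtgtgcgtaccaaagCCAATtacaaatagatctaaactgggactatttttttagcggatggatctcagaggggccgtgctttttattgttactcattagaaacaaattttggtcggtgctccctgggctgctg
COL4A5: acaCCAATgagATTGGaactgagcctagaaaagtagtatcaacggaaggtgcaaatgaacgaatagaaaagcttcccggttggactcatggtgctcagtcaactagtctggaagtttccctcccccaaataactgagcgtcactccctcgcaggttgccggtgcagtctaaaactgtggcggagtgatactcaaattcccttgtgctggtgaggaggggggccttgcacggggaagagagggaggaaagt

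COL4A2 had log2 signals of 8.19 and 7.62 in U87MGR, 7.05 and 7.46 in U87MGL and 7.27 and 7.36 in U87MG. Both U87MGR arrays were above all others, and U87MGL and U87MG overlapped. The log2 difference of 0.65 between U87MGR and U87MGL had a limma adjusted p of 0.484, and that of 0.59 between U87MGR and U87MG one of 0.218. Arrays alike in spike-in signal gave 0.94 and 0.35 for these comparisons. The other probe set of COL4A2, 211966_at, did not separate the groups. It had 6.88 and 6.05 in U87MGR, 6.14 and 6.33 in U87MGL and 6.22 and 5.60 in U87MG. Its differences were 0.23 and 0.55 in the same comparisons.

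COL4A1 was below the tested level on the means of both its probe sets. Its brighter one had 4.06 and 4.19 in U87MGR, 3.99 and 4.03 in U87MGL and 4.26 and 4.24 in U87MG, a spread of all 6 arrays within 3.99 to 4.26. Probe sets differ in affinity, so this does not show that COL4A1 was less abundant than COL4A2. The 126 bases between the starts of this pair, chr13:110307158-110307283 on GRCh38.p14, plus strand, are shown as the shared start region of these trimer partners. They hold 1 CCAAT and 1 GGGCGG, motifs present in 21.1% and 34.6% of promoter windows cut to this length.
COL4A1 and COL4A2: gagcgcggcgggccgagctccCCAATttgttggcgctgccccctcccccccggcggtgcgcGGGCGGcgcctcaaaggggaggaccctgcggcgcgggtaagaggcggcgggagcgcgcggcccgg

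COL15A1 encodes the chain of type XV collagen, a proteoglycan that links basement membranes to the fibrils beneath. Its log2 signal was 8.90 and 7.61 in U87MGR, 6.42 and 7.61 in U87MGL and 10.25 and 8.75 in U87MG. The U87MGL arrays were below both U87MG arrays, while U87MGR overlapped with both other groups. In U87MGL against U87MG the log2 fold change was -2.49 (SE 0.63), or 5.60-fold lower, and did not pass with a limma adjusted p of 0.0742. It ranged from -3.24 without U87MG replicate 2 to -1.73 without U87MG replicate 1, and passed in none of the 6 fits. U87MGR differed from U87MG by -1.25 (limma adjusted p = 0.318), which was -2.65 between the arrays alike in spike-in signal, U87MGR replicate 2 and U87MG replicate 1, and -0.49 without U87MG replicate 1. U87MGR differed from U87MGL by 1.24 (SE 0.63; limma adjusted p = 0.635), the one collagen higher by at least 1 there, with 0.59 without U87MGR replicate 1 and 1.88 without U87MGR replicate 2. COL18A1, the source of the shed fragment endostatin, differed by -0.58 between U87MGR and U87MG with a limma adjusted p of 0.224.

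Type I collagen, the main fibril former of connective tissue, is built of 2 COL1A1 chains and 1 COL1A2 chain. Both genes were bright in all groups and lower in U87MGR in value, and neither passed. COL1A1 had log2 signals of 11.27 and 10.33 in U87MGR, 12.29 and 11.87 in U87MGL and 12.24 and 11.72 in U87MG. Both U87MGR arrays were below all 4 other arrays, and U87MGL and U87MG overlapped. The log2 fold change was -1.28 (SE 0.34) against U87MGL and -1.18 (SE 0.34) against U87MG, with limma adjusted p of 0.305 and 0.109. Arrays alike in spike-in signal gave -0.81 against U87MGL and -1.91 against U87MG. Without U87MGR replicate 2, the lowest array, the values were -0.81 and -0.71.

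COL1A2 had log2 signals of 11.85 and 10.98 in U87MGR, 12.46 and 11.77 in U87MGL and 12.72 and 12.38 in U87MG. The U87MGR arrays were below both U87MG arrays, and the U87MGL arrays overlapped with both groups. U87MGR differed from U87MG by -1.14 (SE 0.34; limma adjusted p = 0.121) by -1.74 between arrays alike in spike-in signal and by -0.70 without U87MGR replicate 2. It differed from U87MGL by -0.71 (limma adjusted p = 0.614). With the replicate number as a block, COL1A1 and COL1A2 both passed as lower in U87MGR than in U87MG, with limma adjusted p of 0.0419 and 0.0432. The labels do not say that equal replicate numbers mark a shared culture.

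Type V collagen, which is incorporated into type I fibrils and limits their diameter, is built from COL5A1, COL5A2 and in some tissues COL5A3. COL5A1 had log2 signals of 8.97 and 8.64 in U87MGR, 10.20 and 9.73 in U87MGL and 9.87 and 8.45 in U87MG. The U87MGR arrays were below both U87MGL arrays, while the U87MG arrays were so far apart that they overlapped with both. U87MGR differed from U87MGL by -1.16 (SE 0.43; limma adjusted p = 0.499) and by -0.999 between arrays alike in spike-in signal. COL5A2, the usual partner, had 9.10 and 8.72 in U87MGR, 9.13 and 9.20 in U87MGL and 9.68 and 8.39 in U87MG. COL5A3 had 5.59 and 6.11 in U87MGR, 5.69 and 5.62 in U87MGL and 5.85 and 6.00 in U87MG. Over all comparisons the pooled log2 differences of these partners lay between -0.27 and 0.19. Between the arrays alike in spike-in signal, U87MGR differed from U87MG by -0.96 in COL5A2 and by 0.26 in COL5A3.

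COL3A1, the chain of type III collagen that accompanies type I in stretchable tissue, was singled out after its values were seen. It had 6.47 and 4.10 in U87MGR, 5.76 and 4.10 in U87MGL and 4.71 and 4.47 in U87MG. In both derivatives the subline numbered 2 was high and the subline numbered 3 low, so the groups overlapped fully by this probe set. The difference between sublines, 2.37 in U87MGR and 1.66 in U87MGL, was the largest replicate difference of any tested collagen in those groups. Its second probe set above the tested level had 5.67 and 5.08 in U87MGR, 5.09 and 4.00 in U87MGL and 4.82 and 3.91 in U87MG. There replicate 1 was higher than replicate 2 in U87MG as well. By that probe set both U87MGR arrays lay above both U87MG arrays, with a log2 difference of 1.01 that was not called in the fit over all probe sets given below. The pooled differences of COL27A1 and COL11A2, the remaining fibrillar chains tested, lay between -0.16 and 0.01 in all comparisons.

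Of 9 markers of pericytes and fibroblasts, cells known for fibrillar collagen, 7 were tested, and 2, PDGFRB and PDPN, fell in both derivatives against U87MG. PDGFRB, a growth factor receptor, differed by -1.36 in U87MGR and by -0.97 in U87MGL, with limma adjusted p of 0.0207 and 0.0355. PDPN, the mucin-like membrane protein podoplanin, differed by -2.19 in U87MGR and by -1.76 in U87MGL, with limma adjusted p of 0.0243 and 0.0313. In the same list 3 markers were lower and 2 higher at an unadjusted limma p under 0.05 in U87MGR against U87MG, and 3 lower and 1 higher in U87MGL against U87MG. The higher ones were CSPG4, a proteoglycan of pericytes and of glial progenitors, and ACTA2, smooth muscle actin. CSPG4 differed by 0.84 in U87MGR and by 1.43 in U87MGL (limma adjusted p = 0.190 and 0.0509), and ACTA2 by 0.56 in U87MGR (limma adjusted p = 0.142). The summed linear signal of the list was 1944 and 1579 in U87MGR, 1930 and 1703 in U87MGL and 2598 and 2649 in U87MG. ANPEP and PDGFRA were below the tested level, while LUM, the fibril-binding lumican, lay between 6.71 and 8.47. LUM was the lower marker beside PDGFRB and PDPN. It differed by -1.07 in U87MGR and by -1.13 in U87MGL against U87MG (limma adjusted p = 0.129 and 0.105). The part of these markers in the collagen values was not tested. Of all tested genes 1.86% were called higher and 1.44% lower in U87MGR against U87MG, and 3.02% and 1.8% in U87MGL against U87MG. At an unadjusted limma p under 0.05 these shares were 11% and 9.78%, and 13.2% and 10.1%. Whether a marker list went beyond these shares was not tested. Of the microglial, endothelial and oligodendrocyte markers 0 were called by limma in any comparison, and at an unadjusted p under 0.05 each of these lists had 0 or 1 per comparison and direction. Of 5 tested astrocyte markers 1, the transporter SLC1A3, fell in both derivatives against U87MG. Of 7 tested neuronal markers 1, MAP2, fell in U87MGL against U87MG, while at an unadjusted limma p under 0.05 GAD1 was higher there by 0.50. At that threshold SYT1 and GAD1 were higher (0.64 and 0.45) and MAP2 lower (-0.82) in U87MGR against U87MG. In U87MGR against U87MGL, SYT1 and MAP2 were higher (0.75 and 0.92).

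Type VI collagen forms beaded filaments in the matrix around cells. COL6A1 had log2 signals of 11.55 and 11.46 in U87MGR, 11.85 and 11.61 in U87MGL and 12.003 and 11.43 in U87MG. COL6A2 had 11.73 and 11.99 in U87MGR, 11.80 and 11.59 in U87MGL and 12.55 and 11.37 in U87MG. COL6A3 had 12.86 and 12.83 in U87MGR, 13.37 and 13.03 in U87MGL and 13.20 and 13.20 in U87MG. The COL6A3 values in U87MGR were below those of both other groups by a narrow margin, -0.35 against U87MGL and -0.36 against U87MG. By their brightest probe sets, pooled differences of COL6A1 and COL6A2 lay between -0.27 and 0.17, and none of the 3 genes passed. The other probe set of COL6A2 over the tested level gave -0.82 in U87MGR against U87MGL and -0.66 in U87MGR against U87MG. It gave 0.17 in U87MGL against U87MG. Between the arrays alike in spike-in signal, U87MGR differed from U87MG by -0.54 in COL6A1, -0.56 in COL6A2 and -0.37 in COL6A3.

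Among the remaining chains, COL8A1, which forms the hexagonal network under vascular and corneal endothelium, was lower in both derivatives in value. It differed by -0.71 in U87MGR and by -0.52 in U87MGL against U87MG, with limma adjusted p of 0.0741 and 0.137. COL12A1, which decorates type I fibrils, and COL10A1, the chain of growth plate cartilage, were higher in U87MGL in value. COL12A1 differed by 0.80 in U87MGL against U87MG (limma adjusted p = 0.110) and by -0.63 in U87MGR against U87MGL (0.516), which ranged from -0.95 to -0.31 when either U87MGR array was left out. COL10A1 differed by 0.65 and -0.57 in the same comparisons, with limma adjusted p of 0.111 and 0.449. COL7A1, the anchoring fibril chain of skin, had the largest replicate difference among collagens in U87MG, 9.001 in replicate 1 and 7.24 in replicate 2. COL26A1, a chain first found in testis and ovary of mice, differed by -0.61 in U87MGR and by -0.56 in U87MGL against U87MG. There U87MG replicate 2 alone was high (7.23, with 6.05 to 6.18 on the other 5 arrays). Between the arrays alike in spike-in signal, U87MGR differed from U87MG by -0.05 in COL26A1. Among the 8 chains left of this class, COL9A1, COL9A2, COL8A2, COL14A1, COL16A1, COL19A1, COL20A1 and COL22A1, the largest difference in any comparison was 0.41, that of COL22A1 in U87MGR against U87MG.

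The 12 chains below the tested level were COL2A1, COL11A1 and COL24A1 among fibrillar chains, COL4A1, COL4A3 and COL4A4 among basement membrane chains, COL25A1, and COL9A3, COL21A1, COL28A1, COL6A5 and COL6A6. Their mean log2 signals lay between 2.94 and 4.72, and single arrays between 2.82 and 5.80. The brightest of them by mean was COL4A3 at 4.72 and the dimmest tested collagen was COL22A1 at 4.83. COL11A1, a fibrillar chain of cartilage, had 3.43 and 3.66 in U87MGR, 3.18 and 3.10 in U87MGL and 4.62 and 3.70 in U87MG, a difference of -1.02 between U87MGL and U87MG that was not tested. Both U87MG arrays were the highest by this probe set, replicate 2 only narrowly. By 204320_at, U87MG replicate 2 (3.36) lay below both U87MGR arrays (3.51 each). By 229271_x_at both U87MG arrays were again the highest, by a narrow margin. A signal under this level does not show that a chain was absent.

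Of the 43 genes 35 had more than 1 probe set, and the probe sets of a gene did not always give differences of the same size. All 3 probe sets of COL13A1 were higher in U87MGL than in U87MG, by 4.18, 1.72 and 1.42, and higher in U87MGR than in U87MG, by 2.46, 0.52 and 0.74. Both tested-level probe sets of COL4A6 were higher too, by 2.13 and 0.90 in U87MGL and by 1.56 and 0.73 in U87MGR. All 5 probe sets of COL1A1 and all 3 of COL1A2 were lower in U87MGR than in U87MG. The steepest was probe set 202404_s_at of COL1A2, with 9.22 and 8.94 in U87MGR, 10.62 and 9.71 in U87MGL and 11.38 and 11.12 in U87MG. It separated all 3 groups, and its difference between U87MGR and U87MG was -2.17.

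Probe set 212940_at of COL6A1 had 7.10 and 6.86 in U87MGR, 7.48 and 7.33 in U87MGL and 8.75 and 8.44 in U87MG. Here both derivatives were below both U87MG arrays, by -1.61 in U87MGR and by -1.19 in U87MGL, unlike the brightest probe set of this gene. A limma fit over all 32805 probe sets at the tested level, added after the data were seen, made calls for these. It called 3 collagen probe sets higher in U87MGL against U87MG (1.19% of all) and 1 lower (0.695%), namely the 3 of COL13A1 and 212940_at of COL6A1. In U87MGR against U87MG it called 0 higher (0.287% of all) and 2 lower (0.357%), 202404_s_at of COL1A2 with an adjusted limma p of 0.0476 and 212940_at of COL6A1 with one of 0.0414. Between U87MGR and U87MGL it called 0 in either direction, beside 0.00914% and 0.0823% of all. At an unadjusted limma p under 0.05, of the 65 collagen probe sets in this fit 1 was higher and 13 lower in U87MGR against U87MGL, beside 2.91% and 4.08% of all probe sets. The counts were 6 higher and 10 lower in U87MGR against U87MG, beside 10.1% and 8.25%, and 9 higher and 7 lower in U87MGL against U87MG, beside 12.5% and 8.1%. Probe sets of 1 gene read the same RNA and are not independent. Which transcripts these probe sets read was not tested.

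**Figure D3:**
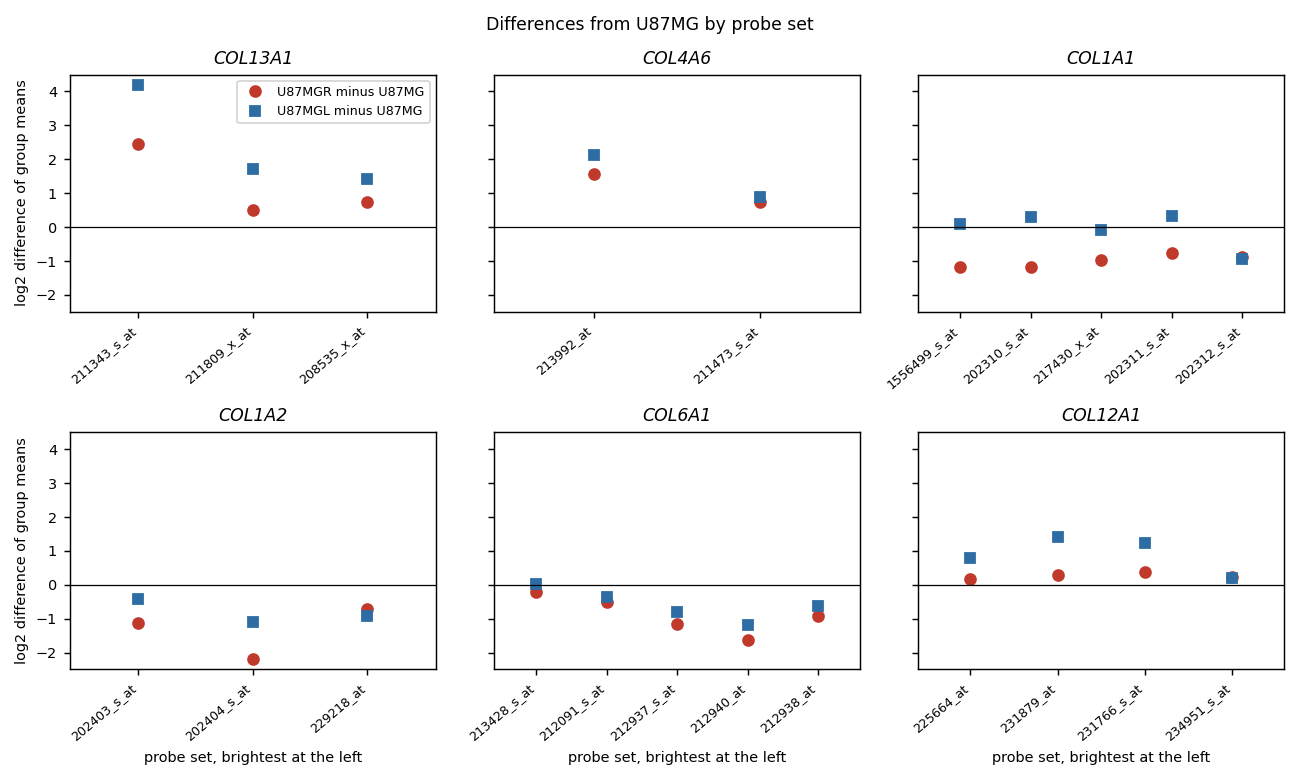
Log2 difference of group means for each probe set over the tested level of 6 collagen genes, brightest at the left; circles are U87MGR minus U87MG and squares U87MGL minus U87MG. All probe sets of COL13A1 and COL4A6 lie above 0 and all of COL1A2 below 0, while COL6A1 runs from 0.02 for its brightest probe set to -1.19 for 212940_at in U87MGL minus U87MG.

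The proteins that fold, secrete, cross-link, bind and cut collagen were described from 6 lists, of which 71 genes were on the array. Of the 18 tested genes of chain folding and hydroxylation 1 rose in U87MGL against U87MG and 0 fell, and 0 passed in the comparisons of U87MGR by limma. At an unadjusted limma p under 0.05 that list had 1 higher and 5 lower in U87MGR against U87MGL, 2 higher and 3 lower in U87MGR against U87MG and 3 higher and 0 lower in U87MGL against U87MG. The shares of all genes at that threshold were 3.91% and 4.94%, 11% and 9.78%, and 13.2% and 10.1% in the same order. They apply to the secretion list below as well. The shares of all genes called at the adjusted threshold were 0.0413% and 0.117%, 1.86% and 1.44%, and 3.02% and 1.8% in that order. These stand beside the calls of all 6 lists, and whether a list went beyond them was not tested. The called gene of chain folding and hydroxylation was P3H2, a prolyl hydroxylase whose best known substrate is type IV collagen. P3H2 had log2 signals of 8.55 and 7.94 in U87MGR, 9.19 and 9.30 in U87MGL and 7.28 and 6.52 in U87MG. Like COL13A1, it was highest in U87MGL and lowest in U87MG with no overlap, and its log2 fold change in U87MGL against U87MG was 2.35 (SE 0.30; limma adjusted p = 0.0143).

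Of 6 cross-linking genes 1, PXDN, passed, the peroxidase that links type IV collagen through sulfilimine bonds. It was higher in U87MGL than in U87MG by 3.29 on the log2 scale and differed by -3.42 in U87MGR against U87MGL, with limma adjusted p of 0.00298 and 0.00223. The 12 tested genes of secretion and propeptide removal had 0 calls by limma in all 3 comparisons. At an unadjusted limma p under 0.05 that list had 3 higher and 1 lower in U87MGR against U87MGL, 2 and 3 in U87MGR against U87MG and 0 and 2 in U87MGL against U87MG. Of 9 collagen receptors 1 passed, ITGA2, the alpha chain of a collagen-binding integrin, which rose by 1.65 in U87MGL against U87MG (limma adjusted p = 0.0265). ITGA2 differed by 1.30 in U87MGR against U87MG, with a limma adjusted p of 0.0579.

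Of 17 fibril and basement membrane partners 1 fell in U87MGR and 2 fell in U87MGL against U87MG. DCN, the small proteoglycan decorin that binds fibrils, fell in both, with log2 differences of -1.69 in U87MGR and -1.12 in U87MGL, with limma adjusted p of 0.0185 and 0.0355. LAMA1, a laminin chain of basement membranes, fell by 2.24 in U87MGL against U87MG, with a limma adjusted p of 0.0104. Of 6 tested genes of collagen cleavage 1 rose and 2 fell in U87MGL against U87MG. MMP1, the collagenase that opens fibrillar collagen, rose by 2.54 with a limma adjusted p of 0.0255. CTSK, the lysosomal collagen protease cathepsin K, fell by 1.82, and FAP, a membrane protease that cuts gelatin, fell by 1.91, with limma adjusted p of 0.0418 and 0.0226.

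Median log2 differences of these lists ran in both directions. In U87MGL against U87MG they were 0.13 for folding, -0.38 for secretion, 0.50 for cross-linking, -0.35 for receptors, -0.14 for partners and -0.76 for cleavage, beside -0.02 over all genes. The medians of U87MGR against U87MG were -0.11, -0.07, -0.07, -0.25, -0.53 and -0.32 in that order, beside -0.01. In U87MGR against U87MGL they were -0.25, 0.26, -0.57, -0.07, 0.05 and 0.05, beside 0.00. Cleavage in U87MGL and cross-linking in U87MGR against U87MGL had the largest medians in size.

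**Figure D4:**
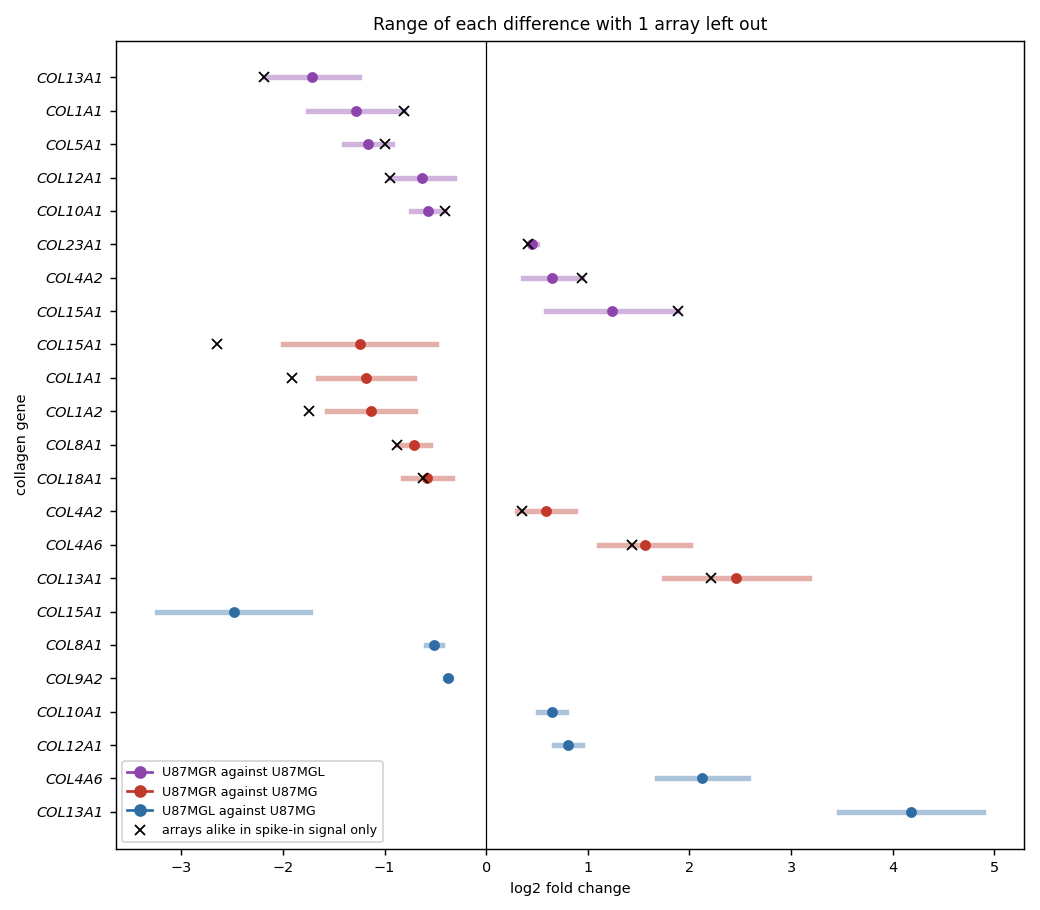
Log2 fold change (horizontal axis) of the collagens at an unadjusted limma p under 0.05 in a comparison, or named by size there. Points are the values over all arrays, bars span the 6 fits that leave out 1 array, and crosses are the difference between arrays alike in spike-in signal. No bar reaches 0: the bar of COL13A1 spans 3.47 to 4.89 in U87MGL against U87MG and that of COL15A1 spans -3.24 to -1.73.

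The plot of ranges with 1 array left out shows that every collagen difference drawn kept its direction in all 6 such fits. The collagens drawn were picked by size or p-value in these same data. Leaving out an array of the group not compared does not change a difference. Where groups do not overlap, no single array can turn it. Kept direction is thus no evidence of stability. Differences of U87MGR against U87MG also kept direction between arrays alike in spike-in signal, which U87MGL and U87MG do not have. For U87MGR against U87MGL the cross is the fit without U87MGR replicate 2, so it lies within the bar by construction and is no further check. The crosses lay outside the bars for 3 genes of U87MGR against U87MG, COL15A1, COL1A1 and COL1A2, and at the very end of the bar for COL8A1. They rest there on U87MGR replicate 2 and U87MG replicate 1 alone. Calls changed with the arrays used, as given for COL13A1 and COL4A6.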

How the data were processed

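The authors deposited log2 signals of 54675 probe sets on 6 arrays, with array medians of 5.29 to 5.35. The software, background correction and normalization are not given in the sources used here, so their effect on dim probe sets is unknown. Per the labels' protocols, RNA was extracted with TRIzol and an RNeasy kit and labelled as biotinylated cRNA. No normalization was added to the deposited values in the main fit.

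Each gene was read from its brightest probe set among the 41097 with 1 symbol in GEO's platform table. The symbols matched the RefSeq gene table for 99.9% of those. Genes with a mean of at least 4.73, the 40th percentile of all probe sets, were tested, which left 14513. One limma model (version 3.58.1, R 4.3.3) was fitted to all 6 arrays with 3 group means, giving 3 residual and 4.05 prior degrees of freedom. A gene was called where its two-sided p, adjusted by Benjamini and Hochberg across the 14513 genes, was under 0.05. Precision is limited by having 2 arrays a group, with a median standard error of 0.19 over all genes and 0.24 over tested collagens. The fit was tested on simulated data.

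The collagens, their classes, the lists and the alternatives were chosen with earlier results of these data known. Values on every array are given for called collagens, the 3 brightest of each class, tested collagens with non-overlapping arrays and a log2 difference of at least 1, and their trimer partners. COL3A1, COL7A1, COL11A1, COL14A1 and COL26A1 were named beyond this rule. Of the 6 pathway lists, called genes were named, at most 4 per direction. After removal of group means, equally numbered arrays correlated across genes at 0.01 (U87MGR and U87MGL), 0.11 (U87MGR and U87MG) and -0.09 (U87MGL and U87MG), so numbers were not treated as pairs. Promoter sequences were taken from a RefSeq table on GRCh38.p14, which held 31 of the 43 genes. The motif search covered both strands, and no matches of different motifs overlapped. Alternatives were other summaries of probe sets, other filters, quantile normalization on top, fits to 4 arrays, another variance prior, blocks for spike-in sets or replicate number, and each array left out.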

Additional observations from a re-analysis of the deposited data

Results flagged for a closer look

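By its brightest probe set COL14A1, a chain that decorates collagen fibrils, lay above U87MG in U87MGR and below it in U87MGL in value. Its log2 signal was 5.21 and 5.33 on the U87MGR arrays, 5.05 and 5.06 on the U87MGL arrays and 5.12 and 5.13 on the U87MG arrays. Both U87MGR arrays were above and both U87MGL arrays below both U87MG arrays. The differences from U87MG were 0.15 in U87MGR and -0.07 in U87MGL (SE 0.15), and neither passed, with limma adjusted p of 0.617 and 0.824. Its other probe sets were below the tested level and did not all share this pattern. In the same order 216865_at gave 0.16 and -0.06, 212865_s_at gave -0.08 and -0.15, and 228750_at gave -0.37 and -0.47. U87MGR and U87MGL themselves differed by 0.21, with a limma adjusted p of 0.723, which does not pass.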

How the results depend on the processing

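In U87MGR against U87MGL the counts of called collagens stayed at 0 in both directions under every alternative run. The count called higher in U87MGL against U87MG, 2 over all arrays, was 0 with 2 or 3 spike-in sets as a block and 1 in the fit to the 4 arrays compared. Leaving out 1 array at a time gave 0 (without U87MGL replicate 2) to 4 (without U87MG replicate 1). The count called higher in U87MGR against U87MG, 1 over all arrays, was 0 with 2 spike-in sets as a block, with the mean of all probe sets of a gene, without the filter, in the fit to 4 arrays and with the replicate block, and 0 to 4 (4 without U87MG replicate 1) with an array left out. In these 5 settings, in this order and before any array is left out, COL13A1 had limma adjusted p of 0.118, 0.0520, 0.0519, 0.0741 and 0.0630. The count called lower in U87MGR against U87MG, 0 over all arrays, was 1 with the mean of all probe sets (COL1A2), 2 with the replicate block (COL1A1 and COL1A2) and 0 to 1 with an array left out. The count called lower in U87MGL against U87MG was 0 to 1 with an array left out. The cause of these changes was not tested. The block with 3 spike-in sets leaves U87MG replicate 2 to a set of its own. The block with 2 sets places it with U87MGR replicate 2 and U87MG replicate 1, though its distances to them were 4.49 and 3.74. Both blocks leave fewer residual degrees of freedom than the fit without a block.

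Of 340 values of single collagens under an alternative, 315 kept direction and side of the threshold, 21 lost the call, 4 gained one and 0 turned direction. These are the collagens drawn in the plot of ranges, picked by size or p-value in the same data. Set against single probe sets, 3 turned: COL12A1 by 234951_s_at (0.0169) and COL1A1 by 202312_s_at (0.0654) in U87MGR against U87MGL, and COL18A1 by 209081_s_at (0.134) in U87MGR against U87MG. The replicate block changed no other collagen call. No raw scanner data were used, so background correction could not be varied.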
